A study of Mus musculus with 22 samples.

Results

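Conventional natural killer cells (cNK) were compared with the innate-like T cells that the study names ILTC1, both sorted from mammary tumours. The comparison uses 6 of the study's 22 RNA-seq libraries: 2 of cNK cells, 2 of TCRab+ILTC1 cells and 2 of TCRgd+ILTC1 cells, chosen by their population labels. All libraries came from pooled tumours of female C57BL/6 PyMT mice aged 20 to 24 weeks, and every group shares that background. PyMT mice carry a viral oncogene driven in the mammary gland, so the lymphocytes came from oncogene-driven tumours and not from transplanted ones. The contrast is the cNK mean minus the average of both ILTC1 means, and 16828 of 37620 table entries had enough counts to be tested. The labels give no gate beyond the receptor in a population's name, so T-cell receptor genes follow the sort and are not a finding. Whether surface proteins such as those of Itgae, Itga1, Itga2 or Klrb1c also served to sort the cells is not stated there, and a gene so used would not be a finding either.

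NK cells are innate lymphocytes that kill target cells with perforin and granzymes without an antigen receptor of their own. Mature NK cells circulate, and their movement is set by integrins and receptors for sphingosine-1-phosphate. Innate-like T cells carry a T-cell receptor together with NK receptors such as NK1.1, and tissue-resident lymphocytes are known for the integrins CD103 (Itgae) and CD49a (Itga1), which hold cells to epithelium and collagen.

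The 6 libraries held 11949036 to 20602715 counts. At least 1 count was found for 17040 and 17339 entries in the cNK libraries, against 16271 and 12866 in TCRab+ILTC1 and 16366 and 14304 in TCRgd+ILTC1, so the ILTC1 libraries of replicate 2 detected fewest. Levels are CPM (counts per 1000000 after TMM scaling), given in the order replicate 1, replicate 2, and differences are log2 fold changes ± SE. A gene is called when its Benjamini-Hochberg adjusted p in edgeR's quasi-likelihood test was under 0.05 over all genes tested. The labels do not say that replicates came from separate animals, so the p-values measure only the spread between libraries of a population. That spread was estimated over 12 libraries, with those of ILC1l, TCRb+CD8a+NK1.1- and TCRgd+NK1.1- cells included. In sorted bulk RNA, fewer cells of a type and less RNA per cell cannot be told apart.

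The population labels were first set against defining genes. Eomes, the T-box factor of conventional NK cells, stood at 146 and 188 CPM in cNK, against 10.2 and 0 in TCRab+ILTC1 and 13.9 and 0 in TCRgd+ILTC1. Both cNK libraries lay above all 4 ILTC1 libraries, but the difference of 4.80 ± 1.42 was not called (adjusted p = 0.152). It was called without TCRab+ILTC1 replicate 1 (adjusted p = 0.0239) or without TCRgd+ILTC1 replicate 1 (adjusted p = 0.0465). Itgae stood at 2.26 and 9.24 CPM in cNK, against 1718 and 3165 in TCRab+ILTC1 and 1450 and 2057 in TCRgd+ILTC1, a difference of -8.50 ± 0.81 (adjusted p = 0.000773). The T-cell receptor chain gene Cd3g had 10.3 and 15.2 CPM in cNK and 2228 to 3096 CPM over the 4 ILTC1 libraries. The gene Klrb1c, which encodes NK1.1, was present in all 6 libraries, at 2483 and 2438 CPM in cNK and 1000 to 1472 CPM in ILTC1 (1.04 ± 0.68, adjusted p = 0.624).

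Tumour cNK cells had more transcript than ILTC1 cells for perforin (Prf1, 4.35 on the log2 scale), CD11b (Itgam, 5.90) and an interleukin-18 receptor chain (Il18rap, 4.29). They had less for CD103 (Itgae, -8.50), CXCR6 (Cxcr6, -6.76), CD49a (Itga1, -6.07) and PD-1 (Pdcd1, -6.40). In cNK, 386 genes were called (2.29% of those tested): 190 were higher (1.13%) and 196 lower (1.16%). Of those lower, 22 were T-cell receptor entries, which follow the sort (CD3 chains not counted), and 1 was an immunoglobulin entry. Of those higher, 1 was a T-cell receptor entry and 4 were immunoglobulin entries. The median difference was 2.80 among genes called higher and -3.28 among genes called lower, against 0.03 over all genes tested. Both cNK libraries lay above all 4 ILTC1 libraries in all 190 genes called higher, and below all 4 in 195 of the 196 called lower. Over all genes tested, 15.0% lay above and 11.2% below in that way. Without cNK replicate 1 the calls numbered 100 and without cNK replicate 2 they numbered 116, and leaving out TCRab+ILTC1 replicate 1 gave 850, 598 of them higher and 252 lower. Without the filter on low counts, 754 were higher and 379 lower. Without TCRgd+ILTC1 replicate 1 there were 245 calls and without TCRgd+ILTC1 replicate 2 there were 200. In all 6 fits that left out 1 library, 88 genes kept their call, 35 of them higher and 53 lower in cNK, and 84 of these also kept it under the 11 other alternatives.

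Of 22 tested genes of the mature NK programme, 12 were higher, none was lower and 10 were not called, and their median difference was 3.01 against 0.03 over all genes. Over the 6 fits with 1 library left out, 5 to 13 members were called higher and none lower. Itgam, the CD11b integrin chain that marks mature NK cells, had 959 and 889 CPM in cNK, against 14.6 and 6.95 in TCRab+ILTC1 and 17.6 and 26.9 in TCRgd+ILTC1. That is a difference of 5.90 ± 0.54 (adjusted p = 0.000705), with no overlap between the groups, as for every gene called higher. Irf8, a transcription factor needed for NK maturation, had 1148 and 1041 CPM in cNK and 140 to 310 CPM in ILTC1 (2.55 ± 0.30, adjusted p = 0.00255).

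Zeb2, a repressor that drives the last steps of NK maturation, had 400 and 288 CPM in cNK, against 10.3 and 0 in TCRab+ILTC1 and 12.9 and 3.99 in TCRgd+ILTC1 (5.69 ± 1.08, adjusted p = 0.0246). S1pr5, the sphingosine-1-phosphate receptor of circulating NK cells, had 86.8 and 47.9 CPM in cNK and at most 1.80 CPM in any ILTC1 library (7.29 ± 1.28, adjusted p = 0.0178). The T-box factor gene Tbx21 had 172 and 134 CPM in cNK and 46.9 to 75.6 CPM in ILTC1 (1.40 ± 0.30, adjusted p = 0.0419). These 3 calls were sensitive to single libraries. Tbx21 lost its call without any 1 of the 6 libraries, with an adjusted p of 0.442 without cNK replicate 1 and of 0.186 without cNK replicate 2. Zeb2 and S1pr5 lost theirs without either cNK library or either TCRgd+ILTC1 library, with an adjusted p of up to 0.124 for Zeb2 and 0.164 for S1pr5. Klrg1, a lectin-like receptor of mature NK cells, had 430 and 621 CPM in cNK and 21.1 to 59.7 CPM in ILTC1, and was not called (4.07 ± 0.97, adjusted p = 0.0722). It was called in 7 of the 11 other alternatives.

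**Figure D1:**
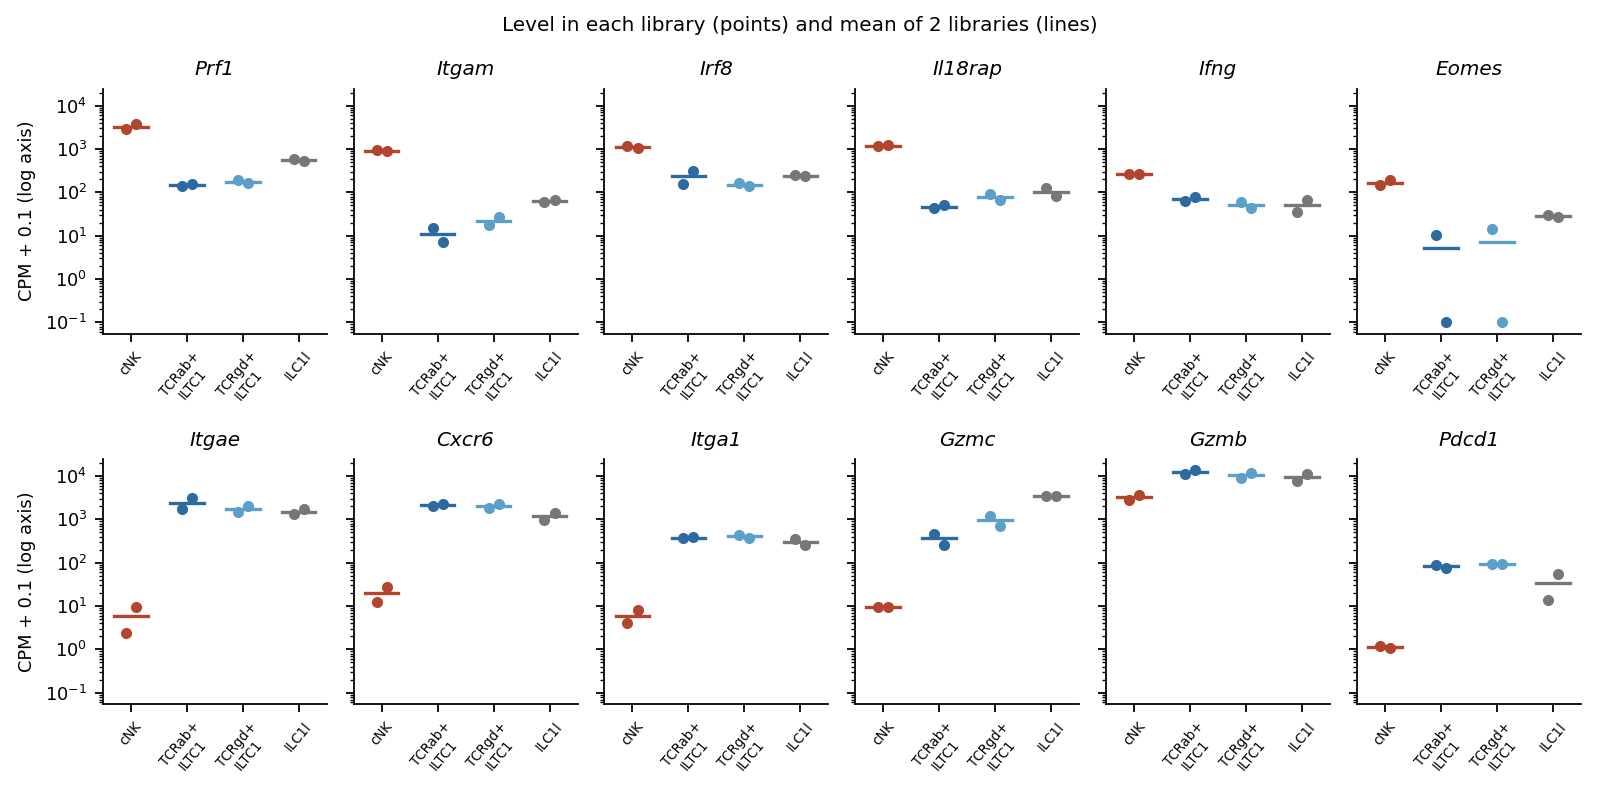
Points give the level of 12 genes in each library (CPM + 0.1, log axis) and lines the mean of the 2 libraries of cNK, TCRab+ILTC1, TCRgd+ILTC1 and ILC1l cells. In the upper row both cNK points lie above all 4 ILTC1 points for every gene (Prf1 at 2886 and 3713 CPM in cNK), and in the lower row below them (Itgae at 2.26 and 9.24 CPM in cNK).

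The tools of killing differed in both directions. Of 22 tested cytotoxic-granule genes, 4 were higher in cNK, 2 were lower and 16 were not called, and their median difference was -0.07. Prf1, the pore-forming protein perforin, had 2886 and 3713 CPM in cNK, against 141.5 and 154 in TCRab+ILTC1 and 192 and 161 in TCRgd+ILTC1 (4.35 ± 0.34, adjusted p = 0.000305). Gzmc, a granzyme gene of a cluster of near-identical copies whose single values are uncertain, had 9.49 and 9.24 CPM in cNK, against 469.7 and 256 in TCRab+ILTC1 and 1228 and 708 in TCRgd+ILTC1. Gzmc was thus far lower in cNK (-5.98 ± 0.57, adjusted p = 0.000773), and its neighbour Gzmf had no count in cNK, against 2.47 to 38.6 CPM in ILTC1, without a call (adjusted p = 0.0859). Gzmf was called in 5 of the 11 other alternatives. Serpinb9, an inhibitor that protects the killer cell from granzyme B, had 1382 and 1301 CPM in cNK and 252 to 419 CPM in ILTC1 (2.02 ± 0.27, adjusted p = 0.00413).

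Gzmb and Gzma differed in opposite directions. Gzmb, which starts apoptosis in target cells, had 2771 and 3655 CPM in cNK, against 11199 and 13766 in TCRab+ILTC1 and 9140 and 11840 in TCRgd+ILTC1 (-1.83 ± 0.37, adjusted p = 0.0333). Gzma, the other main granule protease, had 6805 and 8984 CPM in cNK and 1908 to 2832 CPM in ILTC1 (1.66 ± 0.33, adjusted p = 0.0304). Both calls were lost without any 1 library other than TCRab+ILTC1 replicate 1, with an adjusted p of up to 0.293 for Gzmb (without cNK replicate 1) and 0.270 for Gzma (without cNK replicate 2). Nkg7, a membrane protein of the granules, had 3426 and 4712 CPM in cNK and 2346 to 2927 CPM in ILTC1 and was not called (adjusted p = 0.382).

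Of 19 tested cytokine receptors, 3 were higher in cNK, 1 was lower and 15 were not called, with a median of -0.17. Il18rap and Il18r1 encode the chains of the receptor for interleukin 18, which drives interferon gamma in NK cells. Il18rap had 1164 and 1223 CPM in cNK, against 42.6 and 50.9 in TCRab+ILTC1 and 91.2 and 67.7 in TCRgd+ILTC1 (4.29 ± 0.25, adjusted p = 0.000101). Il18r1 had 294 and 194 CPM in cNK and 7.33 to 34.5 CPM in ILTC1 (3.48 ± 0.55, adjusted p = 0.0112), a call lost without cNK replicate 1 (adjusted p = 0.0846). The receptor chain for interleukin 21, Il21r, went the other way, at 19.9 and 16.1 CPM in cNK and 106 to 205 CPM in ILTC1 (-2.92 ± 0.41, adjusted p = 0.00566). Its call was lost without cNK replicate 1 (adjusted p = 0.0707) or cNK replicate 2 (adjusted p = 0.0842). Il2rb, the shared receptor chain for interleukins 2 and 15, overlapped between the groups, at 2634 and 3255 CPM in cNK and 2272 to 4745 CPM in ILTC1 (-0.15 ± 0.28, adjusted p = 0.974).

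Of 18 tested cytokines and chemokines, 3 were higher in cNK and none was lower, with a median of -0.35 (-0.53 with genes that had no count on one side set at their bound). Ifng, the cytokine that activates macrophages, had 261 and 263 CPM in cNK, against 63.2 and 77.3 in TCRab+ILTC1 and 60.7 and 43.2 in TCRgd+ILTC1 (2.12 ± 0.29, adjusted p = 0.00499). It missed the threshold narrowly without cNK replicate 1 (adjusted p = 0.0520) or cNK replicate 2 (adjusted p = 0.0522). Ccl4, a chemokine that draws immune cells, had 1560 and 1578 CPM in cNK and 216 to 305 CPM in ILTC1 (2.62 ± 0.37, adjusted p = 0.00566). Ccl3, its neighbour in the genome, had 511 and 500 CPM in cNK and 41.0 to 58.2 CPM in ILTC1 (3.28 ± 0.45, adjusted p = 0.00481). For all 3 genes both cNK libraries lay above all 4 ILTC1 libraries, as they did for all 190 genes called higher.

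Receptors for movement were called in both directions. Of 16 tested chemokine receptors, 3 were higher in cNK and 2 lower, with a median of 2.39 (2.22 with genes that had no count on one side set at their bound). Cxcr6, a receptor of lymphocytes that settle in tissue, had 12.4 and 26.8 CPM in cNK, against 2070 and 2298 in TCRab+ILTC1 and 1846 and 2309 in TCRgd+ILTC1 (-6.76 ± 0.42, adjusted p = 0.000101). Ccr2, which brings cells from the blood into inflamed tissue, had 1422 and 1375 CPM in cNK, against 44.0 and 47.2 in TCRab+ILTC1 and 222 and 36.9 in TCRgd+ILTC1 (4.18 ± 0.53, adjusted p = 0.00337). Cxcr4, the receptor that retains cells in bone marrow, had 91.0 and 86.2 CPM in cNK and 6.34 to 12.7 CPM in ILTC1 (3.22 ± 0.42, adjusted p = 0.00413), and its call was lost without cNK replicate 1 (adjusted p = 0.0568). Ccr8, a receptor of activated T cells in tissue, had 2.02 and 5.33 CPM in cNK, against 45.0 and 27.2 in TCRab+ILTC1 and 63.0 and 107 in TCRgd+ILTC1 (-3.92 ± 0.72, adjusted p = 0.0216). The Ccr8 call was lost without cNK replicate 1 (adjusted p = 0.219), cNK replicate 2 (0.0820) or TCRgd+ILTC1 replicate 2 (0.0625).

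Of 18 tested integrins, 5 were higher in cNK and 2, Itgae and Itga1, were lower, with a median of 0.44. Itga4, a chain of the integrin VLA-4 that binds inflamed vessels, had 1312 and 1232 CPM in cNK and 125 to 179 CPM in ILTC1 (3.07 ± 0.36, adjusted p = 0.00244). Itga2, the CD49b chain used to identify NK cells, had 227 and 259 CPM in cNK and 2.50 to 14.6 CPM in ILTC1 (4.96 ± 0.80, adjusted p = 0.0116). Its call was lost without cNK replicate 1 (adjusted p = 0.0520) or cNK replicate 2 (adjusted p = 0.0574). Itgal, the LFA-1 chain used for firm adhesion, had 1630 and 2039 CPM in cNK and 444 to 842 CPM in ILTC1 (1.72 ± 0.29, adjusted p = 0.0150), with an adjusted p of up to 0.144 (without cNK replicate 2) where 1 library was left out. Of 18 tested genes for exit and lymph node homing, 4 were higher in cNK and none was lower, with a median of 1.46. The number called higher was 2 to 8 with 1 library left out (2 without either cNK or either TCRgd+ILTC1 library, 8 without TCRab+ILTC1 replicate 1) and 11 with DESeq2 or without the filter on low counts. Klf2, the factor that switches on exit receptors, had 29.0 and 38.6 CPM in cNK and 0.391 to 4.59 CPM in ILTC1 and was not called (3.48 ± 0.97, adjusted p = 0.123), nor was its target S1pr1 (70.3 and 64.7 CPM in cNK, 23.0 to 27.5 CPM in ILTC1, adjusted p = 0.154). Klf2 was called in 4 and S1pr1 in 5 of the 11 other alternatives.

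Tissue-residency genes were mostly lower in cNK or not called. Of 26 tested members, 13 were lower, 1 was higher and 12 were not called, and the median difference was -2.77. Over the 6 fits with 1 library left out, 8 to 17 members were called lower. Itga1 had 3.89 and 7.82 CPM in cNK, against 364 and 399 in TCRab+ILTC1 and 447.5 and 368 in TCRgd+ILTC1 (-6.07 ± 0.41, adjusted p = 0.000131). Cdh1, the E-cadherin that CD103 binds on epithelium, had 17.1 and 13.3 CPM in cNK, against 883 and 768 in TCRab+ILTC1 and 1235 and 800.5 in TCRgd+ILTC1 (-5.91 ± 0.31, adjusted p = 7.05e-05). Epithelial markers other than Cdh1 summed to 70.3 and 116 CPM over 16 genes in cNK and 63.7 to 118 CPM in ILTC1, so their sum overlapped between the groups while Cdh1 did not. Of the 17 epithelial genes tested, 3 were lower in cNK (Cdh1, Epcam and Spint2) and 1 was higher (Cldn4), with a median of 2.10. Spint2 kept its call only when TCRab+ILTC1 replicate 1 was the library left out (adjusted p of up to 0.435, without cNK replicate 2), and Cldn4 lost its call without cNK replicate 1 (adjusted p = 0.0698). Epcam, an adhesion protein of epithelium, had 0.389 and 2.84 CPM in cNK, against 17.8 and 15.4 in TCRab+ILTC1 and 18.7 and 24.3 in TCRgd+ILTC1 (-3.55 ± 0.74, adjusted p = 0.0391), and lost its call without cNK replicate 1 (adjusted p = 0.187), TCRgd+ILTC1 replicate 1 (0.0727) or TCRgd+ILTC1 replicate 2 (0.101).

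Tnfsf10, the death ligand TRAIL, had 55.5 and 44.3 CPM in cNK and 332 to 492 CPM in ILTC1 (-3.08 ± 0.28, adjusted p = 0.000705). Inpp4b, a phosphatase of phosphoinositide signalling, had 39.2 and 39.3 CPM in cNK and 459.5 to 829 CPM in ILTC1 (-4.05 ± 0.40, adjusted p = 0.000881). Gpr34, a receptor for lysophosphatidylserine, had 5.37 and 13.2 CPM in cNK and 129 to 296 CPM in ILTC1 (-4.63 ± 0.56, adjusted p = 0.00261). The exception was Cd9, a tetraspanin, at 402 and 449 CPM in cNK and 110 to 123 CPM in ILTC1 (1.88 ± 0.33, adjusted p = 0.0169). The call of Cd9 was lost without either cNK library (adjusted p of 0.0936 without replicate 1 and 0.141 without replicate 2) or either TCRgd+ILTC1 library (0.0584 and 0.0714). Zfp683, which encodes the residency factor Hobit, had 0.545 and 0.622 CPM in cNK and 20.7 to 26.9 CPM in ILTC1 and was not called (-5.35 ± 1.26, adjusted p = 0.0686). It was called without TCRab+ILTC1 replicate 1 (adjusted p = 0.0445) and in 7 of the 11 other alternatives, DESeq2 and the 6 libraries alone among them.

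Ly49 and related receptors were called in both directions. Of 32 tested NK-receptor genes, 3 were higher in cNK, 4 were lower and 25 were not called, with a median of 1.1. These counts were 1 higher and 1 lower without either cNK library, 11 and 5 in the 6 libraries alone, 10 and 6 with DESeq2 and 14 and 6 without the filter on low counts. Klra8, the activating receptor Ly49H, had 808 and 702 CPM in cNK, against 4.58 and 0.154 in TCRab+ILTC1 and 40.9 and 2.50 in TCRgd+ILTC1 (6.69 ± 1.06, adjusted p = 0.0112). Klra5, the Ly49E gene, had 19.1 and 26.0 CPM in cNK, against 436 and 556 in TCRab+ILTC1 and 466 and 535 in TCRgd+ILTC1 (-4.46 ± 0.57, adjusted p = 0.00346), a call lost without cNK replicate 1 (adjusted p = 0.0527). Klra4, the activating receptor Ly49D, had 997 and 837 CPM in cNK, against 5.18 and 0.0772 in TCRab+ILTC1 and 37.0 and 2.35 in TCRgd+ILTC1 (6.96 ± 1.23, adjusted p = 0.0226), a call lost without cNK replicate 1 (adjusted p = 0.0850), cNK replicate 2 (0.0664) or TCRgd+ILTC1 replicate 2 (0.0583). Genes of this family are near-identical in sequence, and reads may have been shared between them. Ncr1, the receptor NKp46 that marks NK cells, had 2735 and 2550 CPM in cNK, against 174 and 101 in TCRab+ILTC1 and 534 and 418 in TCRgd+ILTC1, and was not called (3.37 ± 0.81, adjusted p = 0.0857). It was called in 6 of the 11 other alternatives. Fcer1g, the signalling adaptor that many of these receptors share, overlapped at 1150 and 1435 CPM in cNK and 1128 to 1411 CPM in ILTC1. Also called in that list were Klrk1, the stress-ligand receptor NKG2D, and Cd160, Cd226 and Cd96. Cd160, a receptor for HVEM, had 134 and 143 CPM in cNK and 470 to 678.5 CPM in ILTC1 (-2.04 ± 0.26, adjusted p = 0.00337), and was not called without cNK replicate 1 (adjusted p = 0.0691) or cNK replicate 2 (0.0567). Klrk1 had 1917 and 1673 CPM in cNK and 372 to 788 CPM in ILTC1 (1.51 ± 0.31, adjusted p = 0.0345), and kept its call only when TCRab+ILTC1 replicate 1 was the library left out (adjusted p of up to 0.242, without cNK replicate 1). Cd226, an activating receptor for nectin-like ligands, had 101 and 73.4 CPM in cNK and 345 to 554 CPM in ILTC1 (-2.40 ± 0.30, adjusted p = 0.00342), and was not called without cNK replicate 2 (adjusted p = 0.0624). Cd96, which binds a ligand of Cd226, had 128 and 126 CPM in cNK and 511 to 1044 CPM in ILTC1 (-2.51 ± 0.37, adjusted p = 0.00669), and was not called without cNK replicate 1 (adjusted p = 0.0914) or cNK replicate 2 (0.0833).

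Receptors that restrain T cells were lower in cNK more often than higher. Of 19 tested inhibitory-receptor genes, 7 were lower, 1 was higher and 11 were not called, with a median of -0.84. Over the 6 fits with 1 library left out, 4 to 8 were called lower. Pdcd1, which encodes PD-1, had 1.09 and 0.978 CPM in cNK, against 90.0 and 77.4 in TCRab+ILTC1 and 93.2 and 93.5 in TCRgd+ILTC1 (-6.40 ± 0.62, adjusted p = 0.000833). Cd200r1, a receptor that dampens myeloid and lymphoid cells, had 6.61 and 6.22 CPM in cNK and 251 to 404 CPM in ILTC1 (-5.53 ± 0.55, adjusted p = 0.000881). Cd101, an inhibitory immunoglobulin-like protein, had 1.25 and 4.35 CPM in cNK and 118 to 215.5 CPM in ILTC1 (-5.79 ± 0.64, adjusted p = 0.00145). Lag3, an inhibitory ligand of MHC class II, had 3.81 and 6.22 CPM in cNK and 68.5 to 136 CPM in ILTC1 (-4.21 ± 0.51, adjusted p = 0.0027). The member called higher was Nr4a2, an orphan nuclear receptor placed in that list for its part in exhausted T cells, at 201 and 181.5 CPM in cNK and 40.0 to 93.7 CPM in ILTC1 (1.73 ± 0.25, adjusted p = 0.00627). Its call was lost without cNK replicate 1 (adjusted p = 0.0944) or cNK replicate 2 (adjusted p = 0.0567).

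Nr4a2 also belongs to the 20 immediate early genes, which respond quickly to receptor signals and to cell isolation. Of these, 4 were higher in cNK and none was lower, with a median of 1.15. Nr4a1, which T cells and NK cells switch on after receptor stimulation, had 803 and 925 CPM in cNK and 74.4 to 122 CPM in ILTC1 (3.12 ± 0.23, adjusted p = 0.000174). Zfp36, which destabilises cytokine transcripts, had 328 and 342 CPM in cNK and 81.5 to 113 CPM in ILTC1 (1.79 ± 0.27, adjusted p = 0.00804), a call lost without cNK replicate 1 (adjusted p = 0.0694) or cNK replicate 2 (0.0762). Fos, a part of the factor AP-1, had 179 and 215 CPM in cNK and 68.5 to 104.5 CPM in ILTC1 and was not called (1.21 ± 0.32, adjusted p = 0.109). Among 20 cell-cycle genes none was called in either direction, with a median of -0.73, and over the other settings tried at most 3 were called. Both cNK libraries lay below all 4 ILTC1 libraries in 12 of the 20 and above them in 0. Over all genes tested, 11.2% lay below and 15.0% above.

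**Figure D2:**
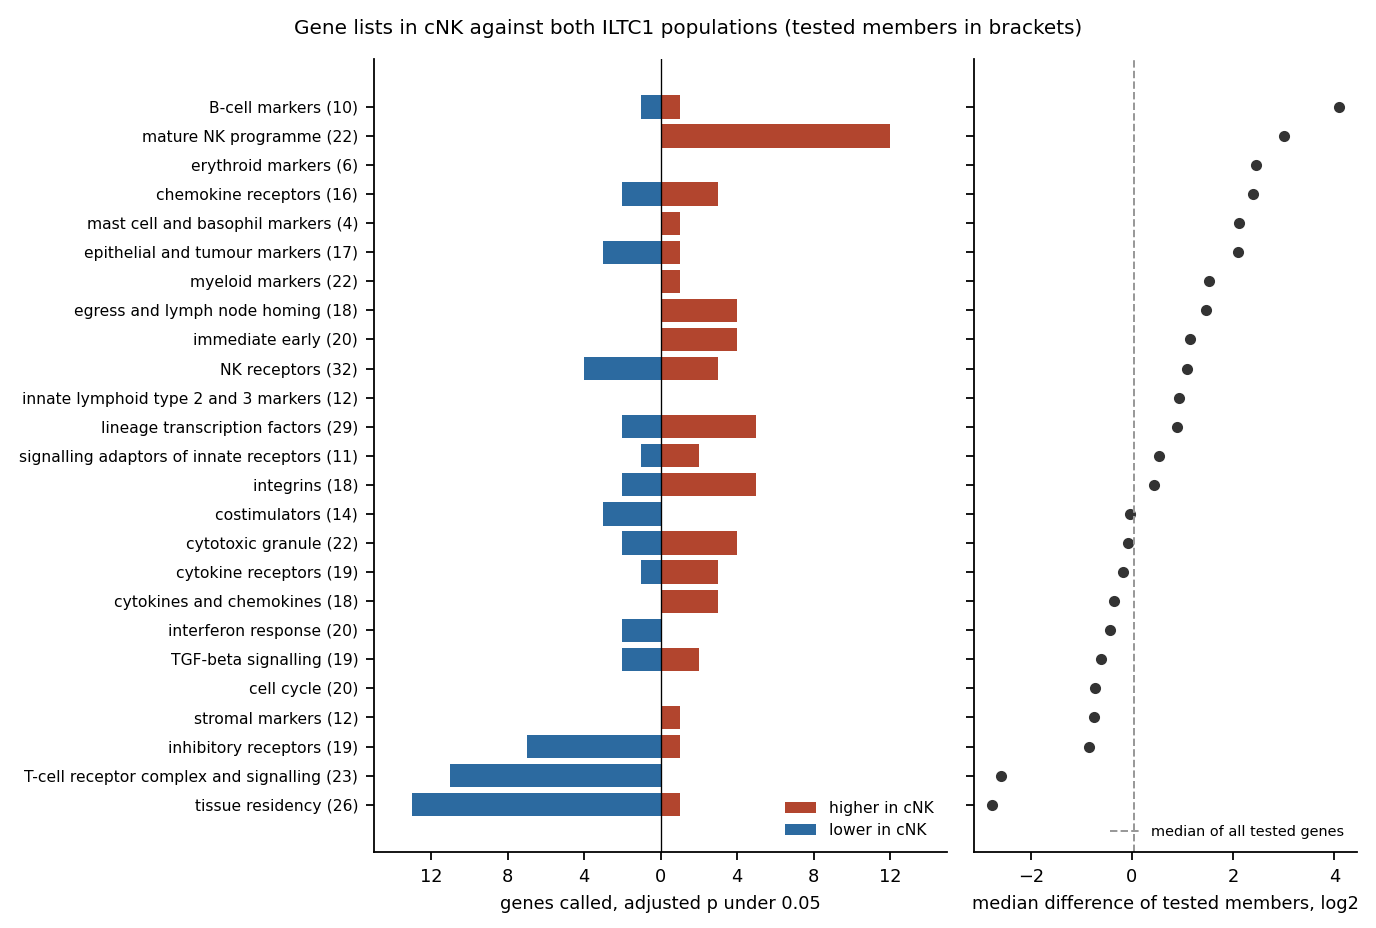
Bars give the number of genes called higher (red, right) and lower (blue, left) in cNK for 25 gene lists, with the tested members in brackets, and points give the median difference of the tested members (log2), beside the median of all genes tested (dashed line, 0.03). The mature NK list has 12 genes called higher and none lower, and the residency list 13 lower and 1 higher.

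Of 29 tested lineage transcription factors, 5 were higher in cNK, 2 were lower and 22 were not called, with a median of 0.89. Without cNK replicate 1 the calls were 1 higher and 0 lower, without cNK replicate 2 they were 1 and 1, and without TCRab+ILTC1 replicate 1 they were 7 and 6. The 5 higher were Irf8, Zeb2 and Tbx21, given above, with Lef1 and Id2. Lef1, a partner of beta-catenin in early lymphocytes, had 97.2 and 81.3 CPM in cNK and 14.3 to 35.5 CPM in ILTC1 (2.00 ± 0.37, adjusted p = 0.0232). Id2, which holds back E proteins in innate lymphocytes, had 2039 and 2158 CPM in cNK and 591 to 1330 CPM in ILTC1 (1.15 ± 0.24, adjusted p = 0.0391). Both kept their call only when TCRab+ILTC1 replicate 1 was the library left out (adjusted p of up to 0.250 for Lef1 and 0.276 for Id2). Ikzf2, which encodes Helios, had 14.0 and 30.4 CPM in cNK, against 273 and 457 in TCRab+ILTC1 and 192 and 322 in TCRgd+ILTC1 (-3.79 ± 0.64, adjusted p = 0.0154). Its relative Ikzf4, which encodes Eos and is not in that list, stood at 0.156 and 0.0889 CPM in cNK, against 34.7 and 25.0 in TCRab+ILTC1 and 35.0 and 24.9 in TCRgd+ILTC1 (-7.81 ± 0.69, adjusted p = 0.000661). Bcl11b, the factor that fixes T-cell identity, had 2.26 and 4.80 CPM in cNK and 17.7 to 34.1 CPM in ILTC1 (-2.91 ± 0.43, adjusted p = 0.00738). Without cNK replicate 1, Bcl11b (adjusted p = 0.116) and Ikzf2 (adjusted p = 0.156) were not called, and without cNK replicate 2 neither was Ikzf2 (adjusted p = 0.0664).

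Components of TGF-beta signalling, the pathway known to induce Itgae, were called in both directions, 2 higher and 2 lower of 19, Itgae being one of those lower, with a median of -0.61. Smad3, which carries the signal to the nucleus, had 126 and 173.5 CPM in cNK and 12.4 to 25.9 CPM in ILTC1 (3.03 ± 0.48, adjusted p = 0.0112). Ldlrad4, an inhibitor of the pathway, had 14.2 and 15.0 CPM in cNK and 71.7 to 94.9 CPM in ILTC1 (-2.46 ± 0.28, adjusted p = 0.00166). Tgif1, a repressor of the pathway's targets, had 137 and 175 CPM in cNK and 23.0 to 47.0 CPM in ILTC1 (2.34 ± 0.30, adjusted p = 0.00381), and was not called without cNK replicate 2 (adjusted p = 0.0526). Smad3 lost its call without cNK replicate 1 (adjusted p = 0.0513) or cNK replicate 2 (adjusted p = 0.0918), and Ldlrad4 without cNK replicate 1 (adjusted p = 0.0520). The receptor gene Tgfbr1 overlapped, at 87.8 and 75.3 CPM in cNK and 74.0 to 134 CPM in ILTC1.

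Several genes of large difference had few or no counts in any ILTC1 library. Cma1, a chymase known from mast cells and also a member of the mature NK list, had 393 and 514 CPM in cNK, against 0.251 and 0 in TCRab+ILTC1 and no count in either TCRgd+ILTC1 library (13.53 ± 1.22, adjusted p = 0.000881). Cma1 was the only 1 called of 4 tested mast-cell and basophil genes. The 4 had a median of 2.12 and summed to 491 and 628 CPM in cNK and 5.17 to 43.6 CPM in ILTC1, of which Cma1 held most in cNK. Besides Cma1, Kit, the receptor of stem cell factor, also lay above all 4 ILTC1 libraries, with 98.2 and 114 CPM in cNK and 5.17 to 40.5 CPM in ILTC1, and was not called (2.28 ± 0.53, adjusted p = 0.0656). Of the others in that list, Mcpt4, Tpsb2 and Prss34 had no count in any of the 6 libraries, and Cpa3 had 0 and 4 counts in cNK. Serpinb9b, a serpin related to Serpinb9, had 466 and 571.5 CPM in cNK and at most 0.752 CPM in any ILTC1 library (11.34 ± 0.96, adjusted p = 0.000751). Cd300lf, an immunoglobulin-like receptor of myeloid cells, had 61.9 and 78.3 CPM in cNK and at most 0.451 CPM in ILTC1 (10.53 ± 1.29, adjusted p = 0.00413). Khdc1b and Cym, a digestive protease gene, had no count in ILTC1 and were at least 572-fold and 760-fold higher in cNK, taking 3 counts over the 4 ILTC1 libraries as the floor. Both of these calls were lost without cNK replicate 1 (adjusted p of 0.0846 and 0.103) or cNK replicate 2 (0.0631 and 0.110), and that of Cym without TCRgd+ILTC1 replicate 2 (0.0530).

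On the side lower in cNK, Apol9b, an apolipoprotein L gene with a near-identical neighbour, had no count in cNK and 13.3 to 40.4 CPM in ILTC1, at least 225-fold lower in cNK when 3 counts over both cNK libraries are taken as the floor. Adgrg1, the adhesion receptor GPR56, had 1.32 and 1.16 CPM in cNK, against 170.5 and 237.5 in TCRab+ILTC1 and 152 and 167 in TCRgd+ILTC1 (-7.17 ± 0.47, adjusted p = 0.000101). Human NK cells are known to carry this receptor. Cd7, an early lymphoid surface protein, had 313 and 429 CPM in cNK and 2925 to 4011 CPM in ILTC1 (-3.28 ± 0.40, adjusted p = 0.00261). Lgals3, the lectin galectin-3, had 30.8 and 36.7 CPM in cNK and 232 to 428 CPM in ILTC1 (-3.28 ± 0.30, adjusted p = 0.000705). Cd7, Lgals3 and several genes above and below that fall outside the rule for named genes (Kit, Gzmf, Nkg7, Inpp4b, Gpr34, Fos, Tgfbr1, Cd247, Trbc1, Tcrg-C2, Trdv4, Jchain and Ifitm2) were chosen after their values were seen.

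Of 23 tested genes of the T-cell receptor complex and its signalling, 11 were lower in cNK, none was higher and 12 were not called, with a median of -2.59. Both cNK libraries lay below all 4 ILTC1 libraries for 16 of the 23 and above them for 4. Over all genes tested, 11.2% lay below and 15.0% above in that way. The members below include CD3 and receptor genes, which follow the sort. Themis, which sets the threshold of T-cell receptor signals, had 0.623 and 0.0889 CPM in cNK and 36.8 to 57.3 CPM in ILTC1 (-6.91 ± 0.80, adjusted p = 0.00208). Trbc1 overlapped between the groups, at 252 and 279.5 CPM in cNK, 432 and 479 in TCRab+ILTC1 and 202 and 248.5 in TCRgd+ILTC1 (-0.27 ± 0.26, adjusted p = 0.811). Cd247, the zeta chain that NK receptors use too, had 297 and 390 CPM in cNK and 217 to 280 CPM in ILTC1 and was not called (adjusted p = 0.366). Trdv4, a delta-chain segment, had 52.1 and 53.0 CPM in cNK, against 0.302 and 0.694 in TCRab+ILTC1 and 24.3 and 43.4 in TCRgd+ILTC1, and was the only 1 of the receptor segments called higher in cNK (3.70 ± 0.68, adjusted p = 0.0213), a call lost without either cNK or either TCRgd+ILTC1 library (adjusted p 0.0637 to 0.0949). Tcrg-C2 had 0.856 and 2.04 CPM in cNK, against 490.5 and 459 in TCRab+ILTC1 and 561 and 625 in TCRgd+ILTC1. Segments of this kind are near-identical and may share reads.

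Markers of other cells moved with some of these groups. Myeloid markers other than Tyrobp and Itgax, 20 genes, summed to 582 and 3201 CPM in cNK, against 2171 and 150.5 in TCRab+ILTC1 and 287 and 255 in TCRgd+ILTC1, so cNK replicate 2 and TCRab+ILTC1 replicate 1 were high. None of these 20 was at 0 in all 6 libraries, and the list of 22 had a median difference of 1.52. Without those 2 libraries, 279 genes were called, 190 higher and 89 lower in cNK, with 6 of the mature NK list higher and 11 of the residency list lower. Where only TCRab+ILTC1 replicate 1 was left out, which gave 850 calls, 11 of the 22 myeloid markers were called higher in cNK, and 16 were without the filter on low counts. Tyrobp, an adaptor that NK and myeloid cells share, was the 1 myeloid marker called, higher in cNK (1091 and 1395 CPM in cNK, 469 to 516 CPM in ILTC1, adjusted p = 0.0457), and lost its call without any 1 library (adjusted p of up to 0.415, without cNK replicate 2). Of 10 tested B-cell markers, 1 was higher in cNK (Igkc) and 1 lower (Ighm), with a median of 4.10. The call of Ighm was kept only when TCRab+ILTC1 replicate 1 was the library left out (adjusted p of up to 0.334, without cNK replicate 2). The light-chain gene Igkc had 1785 and 917 CPM in cNK, against 1.86 and 0 in TCRab+ILTC1 and 0.226 and 16.9 in TCRgd+ILTC1 (8.84 ± 1.43, adjusted p = 0.0117). The joining chain gene Jchain, made by plasma cells, had 617 and 434.5 CPM in cNK and at most 3.76 CPM in ILTC1 (adjusted p = 0.0150, and 0.0563 without cNK replicate 1). The 8 B-cell markers other than Ighm and Igkc summed to 57.5 and 32.9 CPM in cNK and 20.7 to 74.5 CPM in ILTC1. With those genes kept, the 10 tested summed to 2154 and 1183 CPM in cNK and 720 to 1169 CPM in ILTC1. The part of these cells in the results was not tested.

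Set against each ILTC1 population alone, cNK differed in 272 genes from TCRab+ILTC1 (1.62% of those tested), 99 of them higher (0.588%) and 173 lower (1.03%), and in 186 from TCRgd+ILTC1 (1.11%), 50 of them higher (0.297%) and 136 lower (0.808%). Both comparisons share the cNK libraries. Prf1 was higher in cNK by 4.48 against TCRab+ILTC1 and by 4.22 against TCRgd+ILTC1. Itgae differed by -8.74 against TCRab+ILTC1 and -8.26 against TCRgd+ILTC1, Cxcr6 by -6.80 and -6.73, and Itga1 by -6.03 and -6.12, each with an adjusted p under 0.05 in both. Against TCRab+ILTC1 there were 75 calls without cNK replicate 1, 76 without cNK replicate 2, 874 without TCRab+ILTC1 replicate 1 (628 higher and 246 lower) and 126 without TCRab+ILTC1 replicate 2. Against TCRgd+ILTC1 there were 68 without either cNK library, 96 without TCRgd+ILTC1 replicate 1 and 72 without TCRgd+ILTC1 replicate 2. The larger share of lower calls did not hold under every setting. Against TCRab+ILTC1, 505 genes were higher and 363 lower without the filter on low counts, 517 and 460 with DESeq2, 254 and 239 with edgeR's newer estimation, and 248 and 91 without the 2 libraries of higher myeloid counts. Against TCRgd+ILTC1, 427 were higher and 315 lower without the filter.

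The difference between these comparisons is TCRgd+ILTC1 against TCRab+ILTC1, and edgeR called 0 of 16828 genes there (0% called, 570 at an unadjusted p under 0.05), while DESeq2 called 62. Without TCRab+ILTC1 replicate 1, edgeR called 297. The genes of the main contrast with unlike values in the ILTC1 populations include Cd8a, a coreceptor chain, at 0.156 and 2.58 CPM in cNK, against 1668 and 2281 in TCRab+ILTC1 and 198 and 341 in TCRgd+ILTC1. The difference of -2.87 between TCRgd+ILTC1 and TCRab+ILTC1 had an unadjusted p of 0.00689 and was not called. Gzmc was 1.41 higher in TCRgd+ILTC1 than in TCRab+ILTC1 (unadjusted p = 0.0152, not called), and Ncr1 1.79 higher (unadjusted p = 0.104). A missed threshold with 2 libraries a group does not show that the ILTC1 populations stand alike to cNK.

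ILC1l cells, which the study labels as type 1-like innate lymphoid cells, offer another set of levels, since their 2 libraries were not part of the contrast. On the log2 scale, ILC1l lay nearer to the ILTC1 mean than to cNK in 149 of the 190 genes called higher in cNK and in 170 of the 196 called lower. These genes were picked for their difference between cNK and ILTC1, and the share over all genes was not taken. The counts therefore cannot show which group ILC1l resembles. Itgae had 1318 and 1721 CPM in ILC1l, and Cxcr6 967.5 and 1405. Prf1 stood between the groups at 591.5 and 518 CPM in ILC1l, and so did Eomes at 29.8 and 27.3. Ncr1, at 1780 and 1648 CPM in ILC1l, lay on the side of cNK. Cd3g had 390.5 and 1320 CPM in ILC1l, so T-cell receptor transcripts were present in the ILC1l libraries, more so in replicate 2, and their part in these positions was not tested.

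A related contrast exists in the study's first set of libraries, none of which is among those above: TCR-NK1.1+ cells against the mean of TCRb+CD8a+NK1.1+ and TCRb+CD8a-NK1.1+ cells, 2 libraries each. There the cells without a receptor were not divided into cNK and ILC1l. It gave 106 calls (0.674% of 15727 tested), 74 higher (0.471%) and 32 lower (0.203%) in TCR-NK1.1+ cells. Of the 190 genes higher in cNK, 187 were tested there, 143 were higher in TCR-NK1.1+ cells and 17 were called so. Those 17 include the B-cell marker Igkc (7.60 in the first set) and the epithelial marker Cldn4 (6.67). The part of other cells in such shared calls was not tested. Of the 196 lower in cNK, 157 were lower in TCR-NK1.1+ cells, 19 of them called, and 2 were called the opposite way. Those 19 include Cd3d, Cd3e, Cd3g, Trac, Trbc2 and further receptor segments. Such genes follow the sort on the receptor in both sets, so their shared direction is not a finding. Over all genes of that set, 54.0% were higher in TCR-NK1.1+ cells. The count of calls there depended on single libraries: it was 9 without TCR-NK1.1+ replicate 1, 12 and 18 without TCRb+CD8a+NK1.1+ replicate 1 and replicate 2, and 1298 and 313 without TCRb+CD8a-NK1.1+ replicate 1 and replicate 2.

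Prf1 (2.18 ± 0.28, adjusted p = 0.0119), Ccr2 (4.15 ± 0.43, adjusted p = 0.00585) and Cma1 (9.49 ± 1.20, adjusted p = 0.028) were higher in TCR-NK1.1+ cells too. The opposite 2 were Gzmc, higher in TCR-NK1.1+ cells (2.98 ± 0.44, adjusted p = 0.0221), and Ifitm2, an interferon-induced membrane protein gene (2.20 ± 0.29, adjusted p = 0.0132). In the main contrast Ifitm2 stood at 1.56 and 5.95 CPM in cNK, against 75.3 and 24.9 in TCRab+ILTC1 and 82.1 and 60.3 in TCRgd+ILTC1, and in ILC1l at 143 and 225 CPM (adjusted p = 0.0389 in cNK against ILTC1). That call was lost without either cNK or either TCRgd+ILTC1 library (adjusted p 0.0710 to 0.272). Gzmc had 3448 and 3534 CPM in ILC1l. Itgae, at -8.50 in the main contrast, differed by -0.71 in the contrast of unsplit cells (adjusted p = 0.293), and Itgam by 2.92 (adjusted p = 0.117). Some genes not called in the main contrast were called higher in TCR-NK1.1+ cells. These were Eomes (1.70 ± 0.27, adjusted p = 0.0253), Ncr1 (3.66 ± 0.54, adjusted p = 0.0261) and Klrg1 (3.06 ± 0.36, adjusted p = 0.0106). Klrb1c, Klf2, S1pr1, Zfp683, Il2rb and Fcer1g were called in neither contrast.

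**Figure D3:**
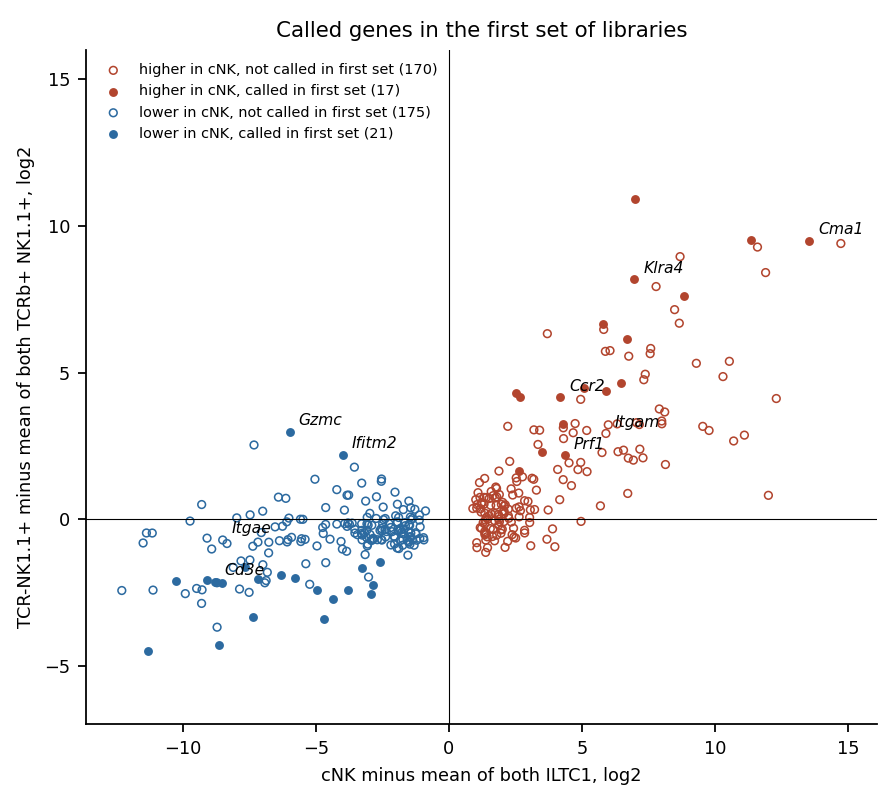
For the called genes tested in both sets, the x axis gives the difference cNK minus the mean of both ILTC1 populations and the y axis the difference TCR-NK1.1+ minus the mean of both TCRb+ NK1.1+ populations (both log2). Filled points were called in the first set too: 17 of the genes higher in cNK (red), all higher, and 21 of those lower (blue), of which Gzmc and Ifitm2 lie above 0.

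Promoter sequence is shown for killing and cytokine genes that differed between the cells. Prf1, Itgam and Ifng had the lowest p among the key genes called higher in cNK, and Cxcr6, Itga1 and Gzmc among those called lower, leaving out T-cell receptor genes and genes with no entry in the promoter table. Their 300-base windows, 250 bases before to 50 after the start, come from RefSeq on GRCm38.p6, on the strand of the gene. They were searched on both strands for a T-box element (GGTGTGA), a RUNX element (TGTGGTT) and the E-box CAGGTG that ZEB factors bind, and 3 of the 6 hold a match, in capitals here: the E-box in Prf1 and Ifng, and the RUNX letters on the reverse strand in Gzmc.
Prf1 (chr10:61297586-61297885, plus strand): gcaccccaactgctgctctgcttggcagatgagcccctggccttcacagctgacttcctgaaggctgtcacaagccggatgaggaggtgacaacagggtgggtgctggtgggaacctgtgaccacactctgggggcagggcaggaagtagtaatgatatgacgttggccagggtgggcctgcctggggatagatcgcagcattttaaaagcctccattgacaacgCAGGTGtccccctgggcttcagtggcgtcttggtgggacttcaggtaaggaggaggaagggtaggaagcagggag
Ifng (chr10:118440796-118441095, plus strand): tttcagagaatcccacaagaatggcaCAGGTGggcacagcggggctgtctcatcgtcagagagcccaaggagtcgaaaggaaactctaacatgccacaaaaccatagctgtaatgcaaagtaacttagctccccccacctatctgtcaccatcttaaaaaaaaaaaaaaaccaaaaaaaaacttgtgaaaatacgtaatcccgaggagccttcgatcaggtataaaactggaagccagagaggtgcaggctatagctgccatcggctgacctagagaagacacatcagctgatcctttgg
Gzmc (chr14:56234608-56234907, minus strand): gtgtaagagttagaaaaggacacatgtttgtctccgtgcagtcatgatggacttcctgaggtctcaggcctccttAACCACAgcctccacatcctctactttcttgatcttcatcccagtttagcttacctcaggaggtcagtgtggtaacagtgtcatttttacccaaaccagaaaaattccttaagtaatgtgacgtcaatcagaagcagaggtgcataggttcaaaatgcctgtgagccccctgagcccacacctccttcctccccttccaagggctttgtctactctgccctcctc

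The E-box was held by the promoters of 32 of 134 matched genes higher in cNK (23.9%), 40 of 130 matched genes lower (30.8%) and 21.7% of all 11065 matched genes tested. The T-box letters were held by 8.21% of matched genes higher in cNK, 7.69% of those lower and 4.39% of all matched genes tested. The RUNX letters were held by 10.4% of those higher, 9.23% of those lower and 4.84% of all. Overlaps between the motifs were not removed, a match is a description of letters only, and no factor's binding was measured here.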

How the data were processed

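RNA-seq of sorted tumour lymphocytes was deposited as 1 table of gene counts for 22 libraries from 11 populations with 2 libraries each. Per the submitters' processing notes, the authors used BWA 0.7.5a, Picard and HTSeq with the builds mm9 and NCBIM37; no source used here gives their parameters or whether counting used strand. The labels name a SMARTer amplification kit. The deposited values are raw counts with no normalization. Of 37620 entries, 32897 (99.02% of counts) matched a symbol.

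Libraries were grouped by their titles, and the titles ILC1I and ILC1l were taken as 1 population. The 12 libraries of the second set (6 populations) were fitted together in edgeR 4.0.16 (R 4.3.3): TMM scaling, filterByExpr by population, the quasi-likelihood F-test and Benjamini-Hochberg adjustment over 16828 genes, with 0.05 as the threshold. The first set (10 libraries, 5 populations) was fitted the same way. The scripts were tested on simulated data. CPM depend on the TMM factors, and precision on 11949036 to 20602715 counts per library; with 2 libraries a group, differences of low genes are imprecise. Floors of 3 counts cover counting error only.

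Named genes were 30 key genes, the 10 largest called differences each way with at least 20 CPM, and up to 4 called members each way of 25 lists, by p. The key genes, the lists and the comparison itself were chosen with earlier results of these data known. DESeq2 1.42.0, other scalings, filters, sets of libraries, a replicate block and leaving out each library were tried as alternatives. Some genes are not reported here.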

Additional observations from a re-analysis of the deposited data

How the results depend on the processing

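The count of 386 genes in cNK against both ILTC1 populations became 1133 without the filter on low counts, 1042 with DESeq2, 606 when all 22 libraries were fitted and between 100 and 850 when 1 library was left out. It stayed within 1.5 times with RLE factors (376), in the 6 libraries alone (404), with the ILTC1 libraries as 1 group (425) and without 1173 genes that followed the myeloid or epithelial lists (380). It also did so without both TCRgd+NK1.1- libraries (560), which were not compared, and with edgeR's newer quasi-likelihood estimation (570). The 1173 genes left out held 22 of those called higher in cNK and 0 of those called lower. Without these 1173 genes, 173 genes were called higher and 207 lower. RLE factors put the median of all genes at 0.06, against 0.03.

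Against TCRab+ILTC1, 272 calls became 868 without the filter, 977 with DESeq2, 490 with all 22 libraries, 493 with edgeR's newer quasi-likelihood estimation, 428 without both TCRgd+NK1.1- libraries, and 75 to 874 with 1 library left out. Against TCRgd+ILTC1, 186 calls became 742, 701, 321, 308 and 287 under those 5 settings in turn, 76 without the 2 libraries of higher myeloid counts, and 68 to 226 with 1 library left out. Between the ILTC1 populations, 0 calls became 154 without the filter, 62 with DESeq2, 7 with the newer estimation, 139 without the 2 libraries of higher myeloid counts, and 0 to 297 with 1 library left out. In the first set, 106 calls became 1324 without the filter, 434 with the newer estimation, and 9 to 1298 with 1 library left out. The newer estimation and the settings without the TCRgd+NK1.1- or higher-myeloid libraries were chosen after seeing the data, and the cause of these moves was not tested.

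The labels give populations the same replicate numbers but no shared animal or day. With the replicate number as a replicate block, 369 genes were called in cNK against both ILTC1 populations, 271 against TCRab+ILTC1, 185 against TCRgd+ILTC1 and 0 between the ILTC1 populations, and 234 in the first set. Deviations of same-numbered libraries correlated by 0.00928 (cNK and TCRab+ILTC1), 0.127 (cNK and TCRgd+ILTC1) and 0.134 (both ILTC1), over 8630 genes.

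Of 1663 alternative values for the 98 named genes, 1394 kept direction and side of the threshold, 220 lost the call, 38 gained it and 11 changed sign. The sign changes fell on 3 uncalled genes. Il2rb (-0.15) ranged over -0.32 to 0.10 and Il7r (-0.21) over -0.54 to 0.46 with 1 library left out, and Il7r was 0.20 without the 2 libraries of higher myeloid counts. Fcer1g (0.03) ranged over -0.14 to 0.18 with 1 library left out, was -0.0057 with the replicate block and -0.10 without the 2 libraries of higher myeloid counts.

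Depth and 2 libraries a group limit calls of low genes, and a missed threshold does not show equal levels.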

Other observations

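Of 20 tested interferon-response genes, 2 were lower in cNK and none was higher, with a median of -0.44. They were Ifit1, an antiviral RNA-binding protein, with 43.8 and 42.6 CPM in cNK and 129 to 174 CPM in ILTC1 (-1.78 ± 0.27, adjusted p = 0.00896), and Ifit3, with 15.7 and 22.9 CPM in cNK and 53.2 to 107 CPM in ILTC1 (-2.03 ± 0.37, adjusted p = 0.0202). Both calls were lost without cNK replicate 1 (adjusted p of 0.126 for Ifit1 and 0.260 for Ifit3) or cNK replicate 2 (0.131 and 0.120), and that of Ifit3 without TCRgd+ILTC1 replicate 1 (0.0532) or replicate 2 (0.0625). Of 14 costimulators, 3 were lower and none was higher, with a median of -0.04. Tnfrsf9, the costimulator 4-1BB, had 298 and 286 CPM in cNK and 572 to 862 CPM in ILTC1 (-1.28 ± 0.19, adjusted p = 0.00738), and Tnfsf8, the ligand of CD30, had 28.0 and 21.9 CPM in cNK and 193 to 227 CPM in ILTC1 (-3.05 ± 0.49, adjusted p = 0.0112). Both lost their calls without cNK replicate 1 (adjusted p of 0.127 for Tnfrsf9 and 0.0995 for Tnfsf8) or cNK replicate 2 (0.153 and 0.138). Of 11 signalling adaptors of innate receptors, 2 were higher and 1 was lower, with a median of 0.53. Syk, a kinase that acts downstream of such adaptors, had 115 and 150.2 CPM in cNK and 6.04 to 27.2 CPM in ILTC1 (3.19 ± 0.66, adjusted p = 0.0378), and its relative Zap70, which serves the T-cell receptor, had 198 and 183 CPM in cNK and 358 to 677 CPM in ILTC1 (-1.25 ± 0.23, adjusted p = 0.0216). Both calls were lost without either cNK or either TCRgd+ILTC1 library (adjusted p of up to 0.222 for Syk and 0.279 for Zap70, without cNK replicate 2). Of 12 markers of type 2 and type 3 innate lymphoid cells none was called in the main edgeR fit. Their median was 0.94 (2.28 with genes that had no count on one side set at their bound). Members called higher numbered 2 with edgeR's newer estimation, with all 22 libraries, without the filter or without both TCRgd+NK1.1- libraries. With DESeq2, in the 6 libraries alone or with the ILTC1 libraries as 1 group, 1 was called higher. Of 12 stromal markers 1 was higher, Pecam1, an adhesion protein that leukocytes also carry, with 86.0 and 102 CPM in cNK and 8.85 to 36.3 CPM in ILTC1 (2.51 ± 0.40, adjusted p = 0.0117) and a list median of -0.74. Its call was lost without cNK replicate 1 (adjusted p = 0.0673), cNK replicate 2 (0.0854) or TCRgd+ILTC1 replicate 2 (0.0583). Of 6 erythroid markers none was called, with a median of 2.45 (2.61 with genes at their bound). The median over all genes tested was 0.03, and of all these genes 1.13% were called higher and 1.16% lower in cNK.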
